A study of Rattus norvegicus with 16 samples.

Results

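The comparison described here is that of hydrogen-treated with control rat livers on a normal diet. Its members were chosen by their labels: the 4 arrays titled as hydrogen-treated liver and the 4 titled as control liver, 8 of the 16 arrays in the series. All rats were males of the F344 inbred strain, labelled as 4 weeks old, and were reared for 3 weeks on the basal rodent chow CE-2. The control rats drank control dehydrogenized water, which is hydrogen-rich water stirred in open air, and were kept in air. The treated rats drank hydrogen-rich water with 0.7 mM dissolved hydrogen and were kept in air containing 2% hydrogen. Drinking and inhalation were always given together, so the 2 routes cannot be told apart. The other 8 arrays of the series hold the same pair of treatments on the CDAA diet, a feed of defined L-amino acids without choline that induces fatty liver, and share no array with the normal-diet comparison. The question was which liver transcripts differ after hydrogen administration without dietary stress.

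Molecular hydrogen is a gas that diffuses freely through membranes and has been studied as a mild antioxidant. The transcriptional programmes of the liver that a treatment of whole animals could touch include the antioxidant response driven by the factor NRF2, the sterol and fatty acid pathways driven by the SREBP factors, and the circadian clock. The clock is a feedback loop in which BMAL1 and its partners CLOCK or NPAS2 activate the Per, Cry, Nr1d and PAR-domain factor genes. Of their products, the PER and CRY proteins repress BMAL1 activity and the NR1D receptors repress Bmal1 transcription. Many liver genes for lipid, bile acid and sugar metabolism follow this clock and the feeding rhythm.

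Every value is a log2 robust multi-array average (RMA) signal, so a difference of 1 is a doubling, and values are given in the order of replicates 1 to 4. Of 31042 probe sets that are not array controls, 22634 passed a filter on dim signals, and they stood for 11435 named genes. The labels give the groups numbered livers and do not say how the rats were assigned, the time of day of sampling, the array strip or the scan date, so p-values measure the spread between these samples. The 17 hepatocyte markers were bright, with a summed linear signal of 124503 to 125463 in the control and 124597 to 125797 in the hydrogen livers. RMA makes the brightest values of all arrays alike, so the closeness of these sums is in part set by the processing. Among all 16 arrays the first principal component held 66% of the variance and separated the diets (plot of principal components). Control replicate 4 stood apart: it lay 30.9% of the way from the other normal-diet arrays to the CDAA arrays, so that results are given with and without it. Among the 8 normal-diet arrays alone, the first component held 26.9% of the variance and ran from -16.87 to 0.85 in the control and from 4.51 to 10.89 in the hydrogen group. The poly-A spike-in phe, added to the RNA before labelling, read 5.43 to 5.65 in the control and 4.93 to 5.39 in the hydrogen group with no overlap. The spike-ins dap, lys and thr were also lower on average with hydrogen, with overlapping ranges. Their means were 8.23, 4.3 and 5.27 in the control and 7.95, 4.11 and 5.14 in the hydrogen group. The hybridisation control bioB averaged 7.5 and 7.53. The part of these technical differences in the results was not tested.

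**Figure D1:**
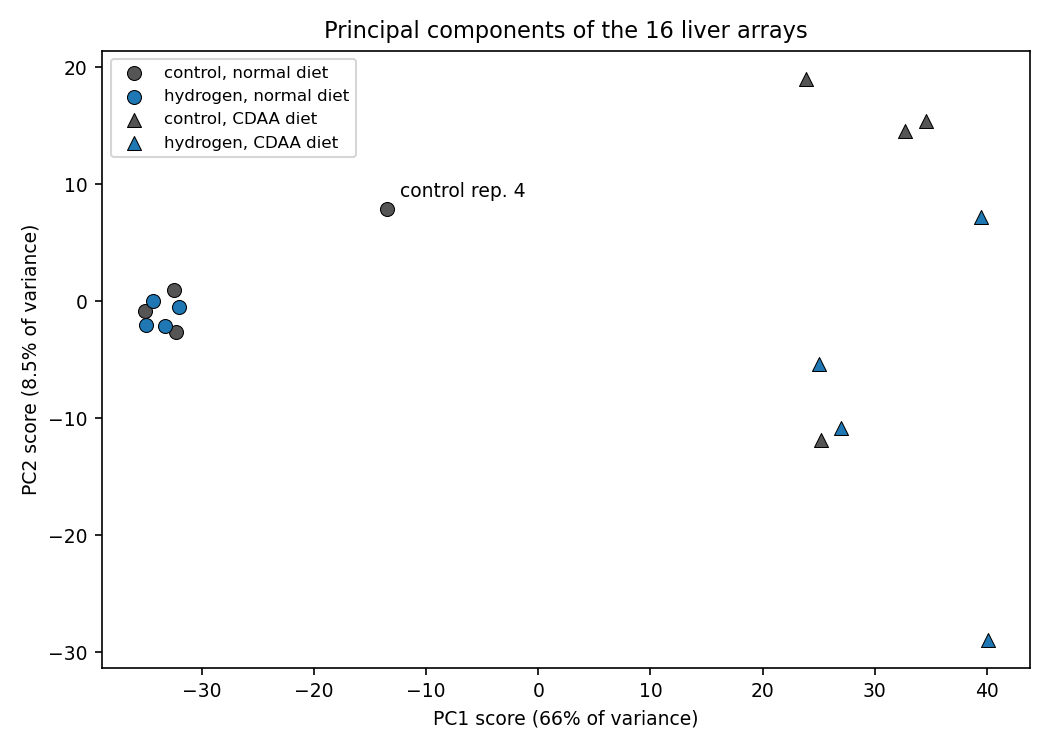
First and second principal component scores of the 16 arrays, computed from 22634 probe sets. Grey marks control, blue hydrogen, circles the normal diet and triangles the CDAA diet. The 4 hydrogen arrays and control replicates 1 to 3 on the normal diet lie together on the left, and control replicate 4 lies 30.9% of the way to the CDAA arrays.

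On the normal diet 2 of 22634 probe sets passed an adjusted p of 0.05 in limma (0.00884%), and 1 of them has a gene name. Wasf1, which encodes the actin regulator WAVE1, read 5.45, 5.49, 5.52 and 5.46 in the control livers and 6.18, 6.42, 6.45 and 6.18 in the hydrogen livers. The 2 groups were narrow and lay far apart, control replicate 4 included. Wasf1 rose by 0.83 ± 0.11 (SE, n = 4 in each group), a 1.77-fold increase with a 95% confidence interval of 0.60 to 1.06 and an adjusted p of 0.0235. In the CDAA comparison the same probe set differed by 0.01, and the difference between the effects on the 2 diets was 0.82 with an unadjusted p of 6.92e-05 and an adjusted p of 0.175. The other called probe set, 1379888_PM_at, is not paired with a gene symbol in the platform annotation. It read 5.71, 5.94, 5.66 and 5.81 in the control livers against 5.03, 4.16, 4.90 and 4.64 with hydrogen. This probe set fell by 1.10 ± 0.15, a 2.14-fold decrease with an adjusted p of 0.0235, and it differed by -0.10 on the CDAA diet.

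Both calls were lost without control replicate 4: Wasf1 differed by 0.82 and 1379888_PM_at by -1.09, each with an adjusted p of 0.0681, so that 0 probe sets (0%) were called while the sizes changed little. At an unadjusted p of 0.05, 1692 probe sets (7.48%) passed with all arrays and 1513 (6.68%) without that array. Leaving out each of the 8 normal-diet arrays in turn gave between 0 and 11 calls. It gave 0 for control replicates 1, 2 and 4 and for hydrogen replicates 3 and 4, 1 for hydrogen replicate 2, 10 for control replicate 3 and 11 for hydrogen replicate 1. The intervals were narrow for most probe sets: the 95% interval of the difference lay within a 2-fold change either way for 99.3% of probe sets and within a 1.5-fold change for 95.6%. Array medians were 4.33 to 4.37 and the filter line 3.68, so many of these probe sets are dim. For those a narrow interval does not show that the transcript was measured precisely. Only 21 probe sets differed by more than 1 in either direction, 12 higher and 9 lower with hydrogen.

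**Figure D2:**
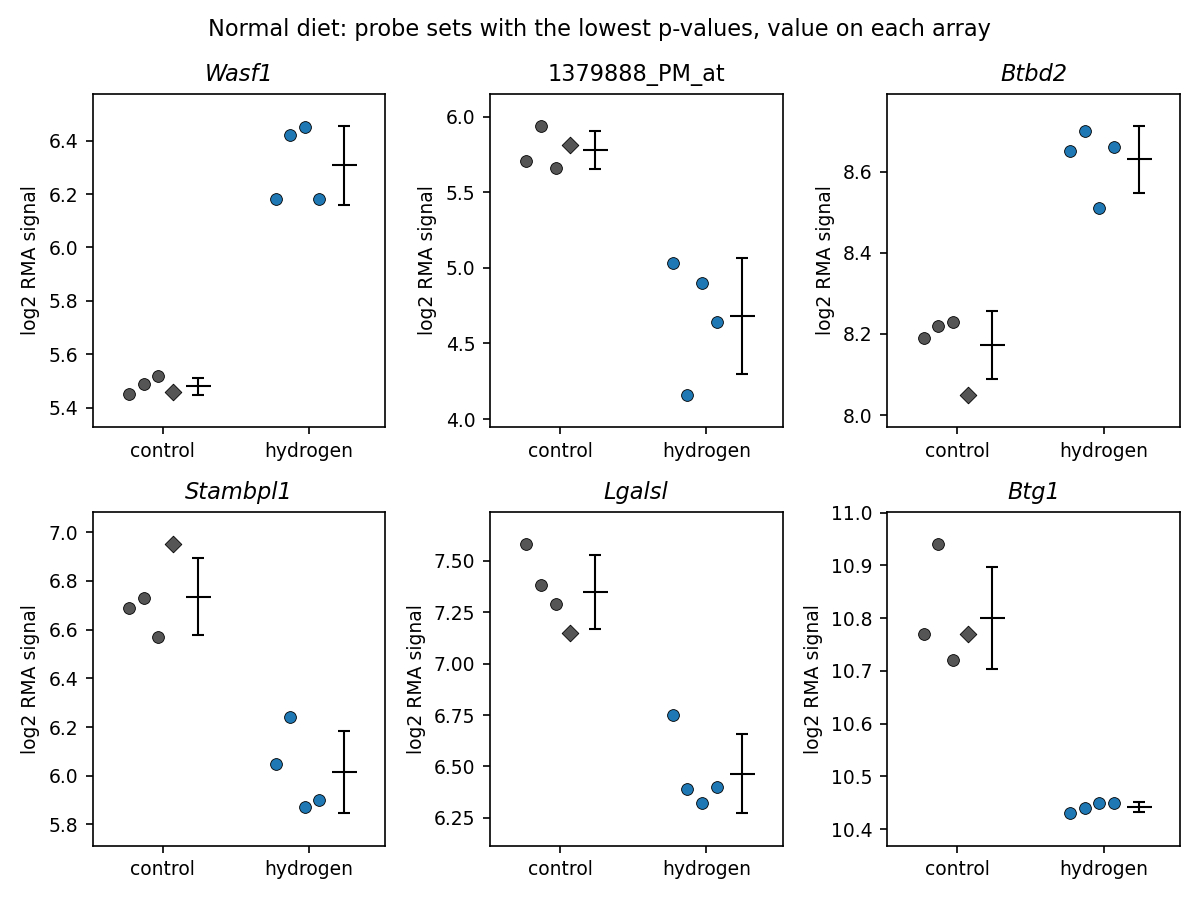
Log2 RMA signal on each normal-diet array for the 2 called probe sets and for 4 genes next in order of p or with clearly separated groups. Points are arrays (grey control, blue hydrogen, diamond control replicate 4), and the bar is the mean with 1 SD (n = 4). In every panel the control and hydrogen arrays do not overlap, with Wasf1 at 5.45 to 5.52 against 6.18 to 6.45.

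Wasf1 was the 1 named gene of 11435 that passed (0.00875%), and every other gene is given with its values and p. Several came close to the threshold, and most of these differed little on the other diet. Btbd2, a BTB-domain protein, read 8.19, 8.22, 8.23 and 8.05 in control and 8.65, 8.70, 8.51 and 8.66 in hydrogen livers, a difference of 0.46 ± 0.07 with an adjusted p of 0.0619. A second, dimmer probe set of Btbd2 differed by 0.00, so the 2 probe sets of this gene disagreed. Stambpl1, a deubiquitinase of the AMSH family, read 6.69, 6.73, 6.57 and 6.95 against 6.05, 6.24, 5.87 and 5.90. Its difference was -0.72 ± 0.12 with an adjusted p of 0.0625. Neither differed much on the CDAA diet, Btbd2 by 0.01 and Stambpl1 by -0.02. Chd9, a chromatin remodeller, differed by -0.43 on the normal diet and 0.02 on the CDAA diet. Kdm2b, a histone demethylase that binds unmethylated CpG islands, likewise differed by -0.43 and 0.02. Kpna1, an importin that carries proteins into the nucleus, differed by -0.45 and -0.08. All 3 had adjusted p-values of 0.124 on the normal diet and groups that did not overlap there, but the dimmer probe sets of Kpna1 differed by only -0.08 and -0.10.

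On the side of higher values, Cmklr1, the receptor of the adipokine chemerin, read 4.22 to 4.47 in the control and 4.62 to 4.78 in the hydrogen livers, a difference of 0.32 with an adjusted p of 0.112. Its second probe set differed by 0.01. Mapk14, the stress kinase p38 alpha, read 8.39 to 8.46 against 8.61 to 8.75 and differed by 0.24 ± 0.06. Lemd3, an inner nuclear membrane protein that restrains SMAD signalling, differed by 0.39, and Myd88, the adaptor of Toll-like receptors, by 0.19. These differences of Mapk14, Lemd3 and Myd88 had unadjusted p-values of 0.000437, 0.00046 and 0.00116. They were 0.23, 0.44 and 0.18 without control replicate 4. The second, dimmer probe set of Lemd3 differed by 0.10 with all arrays. Zmiz2, a coactivator of nuclear receptors, read 6.89, 6.76, 6.83 and 6.56 in control and 6.55, 6.37, 6.40 and 6.37 in hydrogen livers. The difference of Zmiz2 was -0.34 with all arrays and -0.40 without control replicate 4, where its adjusted p was 0.0681.

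Genes whose 4 control and 4 hydrogen values did not overlap numbered 278 of 11435 higher (2.43%) and 373 lower (3.26%) on the normal diet. Of these, 26 were separated in the same direction on the CDAA diet too (0.227% of all genes), 7 higher (0.0612%) and 19 lower (0.166%). Whatever the normal diet showed, 2.25% of all genes were separated and higher on the CDAA diet and 1.51% lower. The 7 of 278 lay near that share, and the 19 of 373 above it. Lgalsl, a galectin-like protein, was among them: it read 7.58, 7.38, 7.29 and 7.15 in control and 6.75, 6.39, 6.32 and 6.40 in hydrogen livers. It differed by -0.89 ± 0.15 (adjusted p 0.101) on the normal diet, with no array of one group reaching the other, and fell by 1.13 on the CDAA diet (adjusted p 0.00305). Btg1, an antiproliferative gene, read 10.77, 10.94, 10.72 and 10.77 against 10.43, 10.44, 10.45 and 10.45. Its 4 hydrogen values spanned only 0.02. The difference of Btg1 was -0.36 (adjusted p 0.124) on the normal and -0.31 on the CDAA diet. Dapk1, a death-associated kinase, differed by -0.55 and -0.31 on the 2 diets, although its second probe set differed by -0.07 on the normal diet. Rprm, a mediator of p53-dependent arrest before mitosis, read 6.18, 6.25, 6.08 and 5.77 against 5.40, 5.46, 5.29 and 5.17. Rprm thus differed by -0.74 (unadjusted p 0.000912) on the normal diet, and it fell by 1.43 on the CDAA diet (adjusted p 0.00223). Hsd17b2, which inactivates oestradiol and testosterone, read 10.84, 11.21, 11.15 and 10.95 in control and 11.51, 11.56, 11.67 and 11.28 in hydrogen livers. Its difference of 0.47 (unadjusted p 0.018) stood beside a rise by 1.45 on the CDAA diet (adjusted p 0.00183).

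The 43 genes called for hydrogen on the CDAA diet (0.376% of 11435) are set beside the normal diet here. Their differences come from the CDAA arrays, but the variance behind their calls was pooled over all 16 arrays, the normal-diet arrays included, so their normal-diet p-values are not independent of the choice. Of the 22 that rose there (0.192%), 12 were higher on the normal diet, 3 with an unadjusted p under 0.05, and their median difference was 0.551 on the CDAA diet and 0.026 on the normal diet. Of the 21 that fell (0.184%), 18 were lower on the normal diet, 9 with an unadjusted p under 0.05, and the medians were -0.887 and -0.19. Without control replicate 4 those counts were 12 of 22 and 17 of 21. Over all genes, 3.31% were higher and 3.8% lower at that unadjusted p on the normal diet, and 50.3% had the same sign on both diets. Tmcc3, a transmembrane coiled-coil protein, read 8.48, 8.30, 8.12 and 8.29 against 7.98, 8.01, 7.71 and 8.10 on the normal diet, a difference of -0.35 with an unadjusted p of 0.00289. It fell by 0.89 on the CDAA diet. Fzd8, a Wnt receptor, was the 1 gene of the 43 with an unadjusted p under 0.05 in the opposite direction: it differed by -0.24 on the normal diet and rose by 0.54 on the CDAA diet.

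Clock genes made up 9 of the 43, 4 that rose and 5 that fell on the CDAA diet. On the normal diet 16 genes of the clock list were measured, and 15 of them differed in the same direction as on the CDAA diet. Of the 16, 15 differed by less on the normal diet (plot of clock genes). At an unadjusted p of 0.05, 3 were higher and 4 lower on the normal diet, against 10 and 5 on the CDAA diet, where 7.28% and 5.31% of all genes passed in those directions. Over all genes 3.31% were higher and 3.8% lower at that p on the normal diet. The clock counts were 2 higher and 2 lower when control replicate 4 was left out, and none passed the adjusted threshold on the normal diet. Dbp, a PAR-domain factor that is a direct output of the clock, had the lowest p of the list. It read 5.84, 6.77, 6.09 and 5.65 in control and 7.20, 7.55, 7.60 and 7.12 in hydrogen livers, so that the lowest hydrogen value lay above the highest control value. The difference was 1.28 ± 0.30 (unadjusted p 0.000614, adjusted p 0.224), and 1.13 without control replicate 4. Dbp rose by 2.44 on the CDAA diet (adjusted p 0.00183).

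The first 3 of the printed promoters are shown because their genes, activated by BMAL1, carry the E-box CACGTG to which BMAL1 dimers bind, and the fourth because Bmal1, repressed by the NR1D receptors, carries the hexamer AGGTCA that such receptors bind. Each window runs from 250 bases before to 50 after the annotated start, 5′ to 3′ on the strand of the gene, from RefSeq on GRCr8, with the motif in capitals. They are Bhlhe40 at chr4:143174200-143174499 on the plus strand, Tef at chr7:115206577-115206876 on the plus strand, Nr1d1 at chr10:84229405-84229704 on the minus strand and Bmal1 at chr1:176766078-176766377 on the plus strand.
Bhlhe40: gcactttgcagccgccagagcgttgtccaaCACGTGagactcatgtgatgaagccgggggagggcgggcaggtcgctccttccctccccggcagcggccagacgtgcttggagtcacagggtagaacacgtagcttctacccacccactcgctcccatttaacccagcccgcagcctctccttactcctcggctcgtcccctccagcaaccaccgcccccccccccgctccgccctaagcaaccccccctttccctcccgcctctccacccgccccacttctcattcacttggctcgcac
Tef: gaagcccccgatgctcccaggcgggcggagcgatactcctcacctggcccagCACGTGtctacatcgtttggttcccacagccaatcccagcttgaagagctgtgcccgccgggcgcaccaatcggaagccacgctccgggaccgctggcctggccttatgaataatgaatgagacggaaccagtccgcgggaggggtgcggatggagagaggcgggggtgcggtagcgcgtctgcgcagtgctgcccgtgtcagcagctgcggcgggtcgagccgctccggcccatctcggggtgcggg
Nr1d1: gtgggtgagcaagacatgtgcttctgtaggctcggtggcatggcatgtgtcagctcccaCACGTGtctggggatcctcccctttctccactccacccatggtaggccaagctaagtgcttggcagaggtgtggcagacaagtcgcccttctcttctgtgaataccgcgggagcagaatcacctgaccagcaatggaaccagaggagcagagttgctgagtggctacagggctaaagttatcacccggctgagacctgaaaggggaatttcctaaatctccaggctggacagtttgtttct
Bmal1: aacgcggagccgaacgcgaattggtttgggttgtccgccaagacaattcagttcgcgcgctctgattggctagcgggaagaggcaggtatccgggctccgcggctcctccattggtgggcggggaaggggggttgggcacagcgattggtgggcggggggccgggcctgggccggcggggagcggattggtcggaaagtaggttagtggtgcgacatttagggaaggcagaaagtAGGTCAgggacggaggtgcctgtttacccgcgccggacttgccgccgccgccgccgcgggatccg

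Searched on both strands, CACGTG lay in 4 of the 15 clock-gene windows (26.7%), which belong to 14 of the 16 genes, and in 6.42% of all 33469 promoter windows. The hexamer AGGTCA lay in 2 of the 15 (13.3%) and in 16.2% of all. Among the genes separated in the same direction on both diets, 0 of the 6 windows of higher genes and 0 of the 14 of lower genes held CACGTG, and 3 of the 14 held AGGTCA. A match describes letters in this window and was not tested for binding.

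Bhlhe40, a repressor within the clock that also answers to hypoxia and feeding, read 5.59, 6.36, 7.28 and 7.35 in control and 7.20, 8.10, 7.67 and 7.87 in hydrogen livers. The groups overlapped because the control values spread widely, and the difference was 1.07 (unadjusted p 0.0107) on the normal diet against 0.08 on the CDAA diet. Bhlhe40 was thus the only gene of the list with a larger difference on the normal diet. The E-box genes Nr1d1, which encodes the repressor REV-ERB alpha, and Tef, a PAR-domain factor, differed by 0.38 and 0.28. Their unadjusted p-values were 0.149 and 0.116, and the difference of Nr1d1 was 0.21 without control replicate 4. Nr1d1 differed by 0.85 and Tef rose by 0.91 on the CDAA diet. Nr1d2, the paralogue of Nr1d1, differed by 0.27 (unadjusted p 0.0441). The period genes Per2 and Per3, repressors of BMAL1, differed by 0.32 and 0.36 on the normal diet and rose by 1.20 and 1.41 on the CDAA diet, while Per1 differed by 0.04 on the normal diet.

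The genes of the opposite phase were lower. Bmal1 itself read 5.35, 4.87, 5.17 and 5.37 in control and 4.92, 4.77, 4.53 and 4.97 in hydrogen livers, a difference of -0.39 (unadjusted p 0.0319, and 0.0869 without control replicate 4) on the normal diet, and it fell by 1.29 on the CDAA diet. Npas2, a partner of BMAL1, read 7.72, 7.02, 7.71 and 7.39 against 7.11, 6.77, 6.63 and 6.70. It differed by -0.66 (unadjusted p 0.011) and fell by 1.13 on the CDAA diet. Nfil3, a repressor that competes with the PAR-domain factors, read 6.98, 6.97, 6.83 and 7.17 against 6.67, 6.75, 6.37 and 6.20. Its groups did not overlap, and the difference was -0.49 (unadjusted p 0.0227, and 0.0617 without control replicate 4). Cry1, a repressor that peaks late in the cycle, read 5.11, 5.23, 5.11 and 5.10 against 4.99, 4.86, 4.99 and 4.98, a difference of -0.18 with separated groups, and fell by 0.53 on the CDAA diet. The time of sampling is not given in the labels, and its part in these differences was not tested. In a test of the difference between diets, 9 of the 16 clock genes had an unadjusted p under 0.05, against 9.27% of all genes, and none was called.

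**Figure D3:**
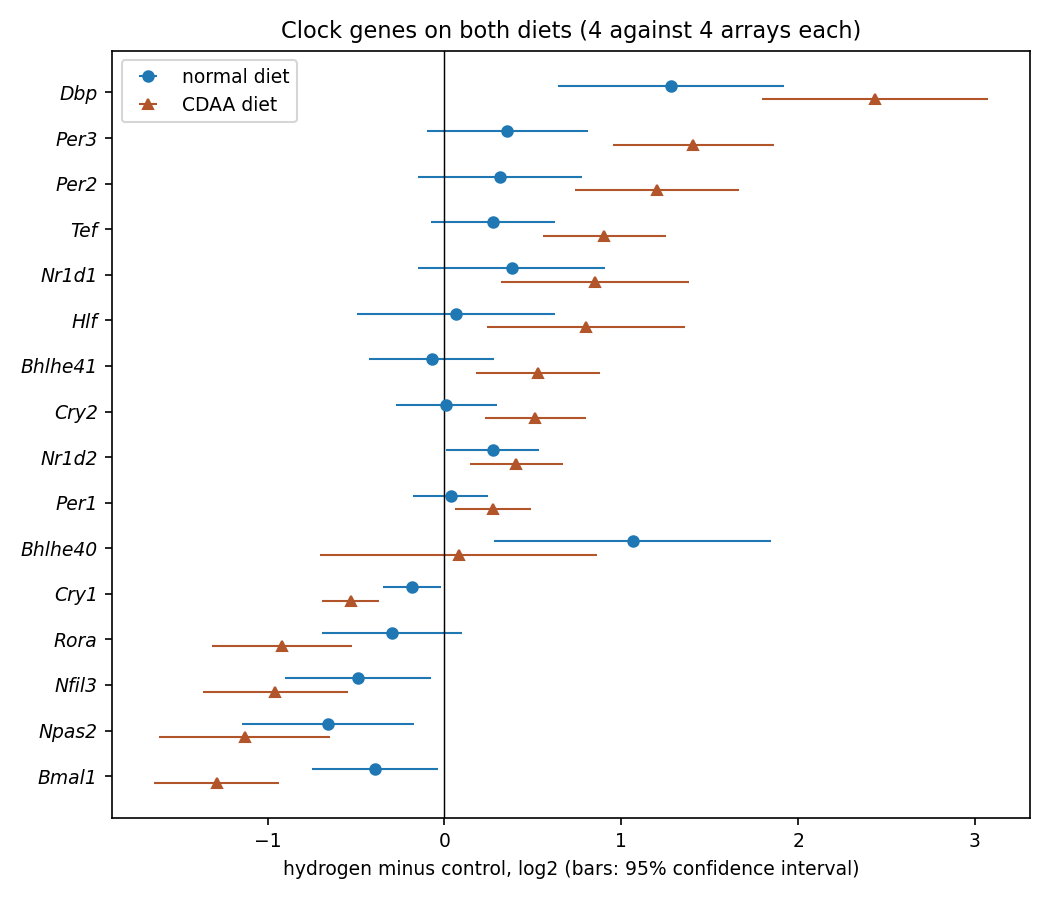
Hydrogen minus control difference of the 16 measured clock genes on the log2 scale, with 95% confidence intervals from limma, on the normal diet (blue circles) and the CDAA diet (brown triangles), 4 arrays a group. The normal-diet points lie on the same side of 0 as the CDAA points for 15 of 16 genes and are closer to 0 for 15 of 16, Bhlhe40 being the exception at 1.07 against 0.08.

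Some of the large differences on the normal diet belonged to transcription factors that varied greatly among the control livers. Bcl6, a repressor that growth hormone lowers in rat liver, read 9.94, 9.31, 6.99 and 9.01 in control and 6.54, 5.55, 5.90 and 5.69 in hydrogen livers. The groups did not overlap, but control replicate 3 lay near the hydrogen arrays. The difference of Bcl6 was -2.89 ± 0.76 (unadjusted p 0.00159, adjusted p 0.329), and on the CDAA diet it was 0.93. Onecut1, or HNF6, a liver factor that growth hormone pulses induce, read 6.83, 7.31, 9.52 and 8.03 against 9.64, 10.12, 9.27 and 9.14. Control replicate 3, which lay nearest to the hydrogen arrays for Bcl6, here reached their range. The difference of Onecut1 was 1.62 ± 0.64 (unadjusted p 0.0227), its second probe set differed by 1.49 and on the CDAA diet the gene differed by -0.89. Slc25a30, a mitochondrial carrier, had the same order of control values, 7.74, 8.82, 10.32 and 9.62, against 10.13 to 11.00 with hydrogen, and it differed by 1.35. The list of 25 growth hormone axis and sex-biased genes, which holds Bcl6, had a median difference of -0.007. The mean of the 25 genes, Bcl6 included, was 9.36 to 9.44 per control liver and 9.20 to 9.32 per hydrogen liver, with no overlap. At an unadjusted p of 0.05, 0 members were higher and 3 lower (3.31% and 3.8% of all genes). Slc25a30 was chosen after its values were seen.

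Nr0b2, the small heterodimer partner SHP that represses bile acid synthesis, read 7.73, 7.68, 6.93 and 6.79 in control and 8.40, 8.23, 8.88 and 8.38 in hydrogen livers. All hydrogen values lay above all control values, and the difference was 1.19 ± 0.33 (unadjusted p 0.00223, adjusted p 0.365). It was 1.03 without control replicate 4 and 0.48 on the CDAA diet. Nr1h4, the bile acid receptor FXR that induces Nr0b2, differed by 0.25 and its target Abcb11, the bile salt export pump, by 0.13, with unadjusted p-values of 0.0511 and 0.0583. Cyp7a1, the rate-limiting enzyme of bile acid synthesis, read 9.87, 9.36, 8.80 and 9.30 against 8.84, 9.17, 9.24 and 9.78 and differed by -0.08. Of 21 bile acid genes measured, Nr0b2 alone passed an unadjusted p of 0.05 (all genes 3.31% higher and 3.8% lower). The median difference of the list was 0.035.

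Egr1, an immediate early factor, read 7.29, 7.21, 7.47 and 7.89 in control and 6.91, 6.42, 6.48 and 5.82 in hydrogen livers. The groups were separated, with a difference of -1.06 ± 0.29 (unadjusted p 0.00234) and of -0.92 without control replicate 4. Egr1 differed by -0.48 on the CDAA diet. Across 19 immediate early genes the median difference was -0.07, and -0.005 without control replicate 4. With all arrays 1 member was higher and 1 lower at an unadjusted p of 0.05 (3.31% and 3.8% of all genes). In the glucose list of 23 genes, Ppargc1b, a coactivator of mitochondrial and lipogenic genes, read 4.76, 4.84, 4.63 and 4.47 against 4.37, 4.49, 4.31 and 4.26, a difference of -0.32 (unadjusted p 0.00161). Pdk4, the kinase that blocks pyruvate oxidation in fasting, differed by 0.51 (unadjusted p 0.0234) on the normal and by -0.80 on the CDAA diet, although its dimmer probe set differed by 0.05 on the normal diet. The median of the glucose list was 0.002.

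**Figure D4:**
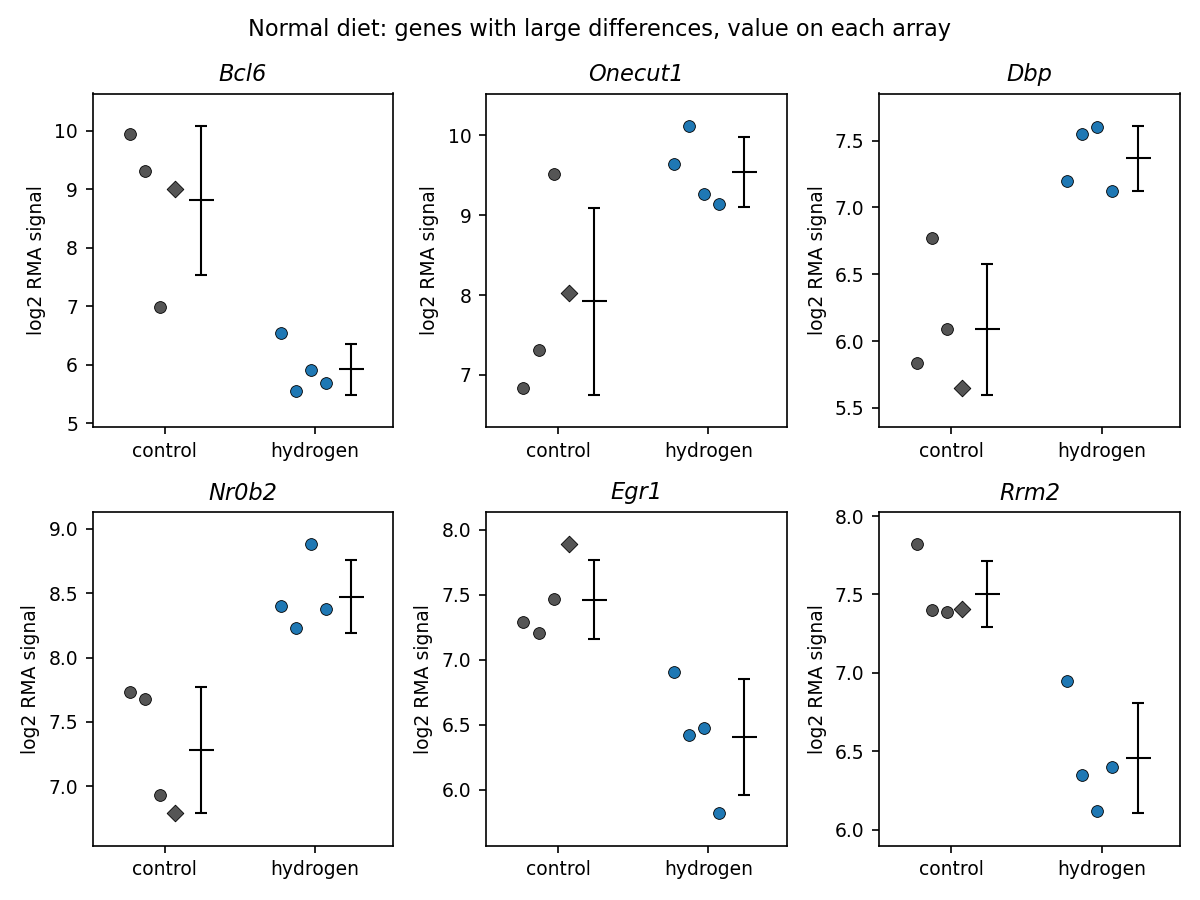
Log2 RMA signal on each normal-diet array for 6 genes with large differences. Points are arrays (grey control, blue hydrogen, diamond control replicate 4), and the bar is the mean with 1 SD (n = 4). Bcl6, Dbp, Nr0b2, Egr1 and Rrm2 show separated groups, whereas the control arrays of Onecut1 run from 6.83 to 9.52 and reach the hydrogen range of 9.14 to 10.12.

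Cell division genes were lower with hydrogen as a group, without any call. Of 39 genes of DNA replication and mitosis measured, 34 were lower and 4 higher, with a median difference of -0.188 against -0.005 over all genes. At an unadjusted p of 0.05, 4 were lower and 0 higher, where 3.8% and 3.31% of all genes passed in those directions. The groups did not overlap for 10 of the 39, all lower, where 3.26% of all genes were separated that way. The mean of the 39 genes was 5.06 to 5.18 per control liver and 4.79 to 5.01 per hydrogen liver. Rrm2, the regulated subunit of ribonucleotide reductase, which makes deoxyribonucleotides, read 7.82, 7.40, 7.39 and 7.41 against 6.95, 6.35, 6.12 and 6.40. It differed by -1.05 (unadjusted p 0.021), and by -0.24 at its dimmer probe set. Mki67, the proliferation marker Ki-67, read 5.28, 5.03, 5.15 and 5.56 against 4.87, 4.23, 4.06 and 3.92. Its difference was -0.98 (unadjusted p 0.0247), and all 4 hydrogen values lay below the controls. Ccnb1, the mitotic cyclin B1, and its kinase Cdk1 differed by -0.54 and -0.63, with unadjusted p-values of 0.047 and 0.0486. Mcm4, a subunit of the replicative helicase, differed by -0.27 with overlapping groups. Without control replicate 4 the median was -0.175, and 1 of the 39 kept an unadjusted p under 0.05 (all genes 3.2% higher and 3.13% lower). On the CDAA diet the median was -0.30, with 11 lower and 1 higher at that p (5.31% and 7.28% of all genes). In bulk liver, fewer cells of a type or state and less RNA per cell cannot be told apart.

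Genes of cholesterol synthesis and uptake were mostly higher. Of 21 measured, 19 were higher and 2 lower on the normal diet, with a median of 0.185 and a range of -0.16 to 0.46. At an unadjusted p of 0.05, 4 were higher and 0 lower, where 3.31% and 3.8% of all genes passed, and 4 had separated groups, all higher (2.43% of all genes). Mvd, which decarboxylates mevalonate diphosphate, read 5.45, 5.45, 5.28 and 5.40 in control and 5.67, 5.92, 5.55 and 6.09 in hydrogen livers, a difference of 0.41 (unadjusted p 0.00726). Msmo1, a sterol demethylase, read 9.30, 9.00, 9.12 and 9.11 against 9.41, 9.64, 9.38 and 9.58 and differed by 0.37 (unadjusted p 0.0242). The highest hydrogen values of Mvd came from replicates 2 and 4, which were also the highest for Msmo1. The same held for the mean of the 21 genes, 8.488, 8.296, 8.355 and 8.275 in control and 8.472, 8.585, 8.426 and 8.677 in hydrogen livers. These means overlapped, as hydrogen replicates 1 and 3 lay below control replicate 1. Fdps, which makes farnesyl diphosphate, and Stard4, a sterol carrier, differed by 0.25 and 0.33, with unadjusted p-values of 0.0366 and 0.0442. Without control replicate 4 the median was 0.145 and 3 genes passed that p, all higher (3.2% of all genes). On the CDAA diet the median was -0.052, with 0 higher and 4 lower at that p (7.28% and 5.31% of all genes). Of the 21, 11 were higher on the normal and lower on the CDAA diet.

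Fatty acid synthesis genes showed the same contrast between diets. On the normal diet 14 of 18 were higher, with a median of 0.166, and 2 were higher and 0 lower at an unadjusted p of 0.05 (3.31% and 3.8% of all genes). Neither passed that p when control replicate 4 was left out, where the median was 0.152. Per liver the mean of the 18 genes was 8.998, 8.977, 8.717 and 8.902 in control and 9.036, 9.204, 8.859 and 9.485 in hydrogen livers. These means overlapped, and hydrogen replicates 2 and 4 were again the highest. On the CDAA diet the median was -0.242, and 13 of the 18 were higher on the normal and lower on the CDAA diet. Pnpla3, a lipid droplet acyltransferase and hydrolase induced by SREBP-1c, read 5.77, 6.44, 4.66 and 5.43 against 6.16, 7.58, 5.06 and 8.42. Its hydrogen values ranged widely, from below most controls in replicate 3 to far above them in replicate 4, and the difference was 1.23 (unadjusted p 0.0311). Thrsp, a lipogenic regulator, read 10.39, 10.65, 9.90 and 10.34 against 10.63, 11.19, 10.87 and 11.46. It differed by 0.72 (unadjusted p 0.0517), with overlapping groups, and its other probe sets by 0.79 and 0.85. Elovl5, a fatty acid elongase, differed by 0.28 (unadjusted p 0.0341). Acly, which supplies cytosolic acetyl-CoA, differed by 0.50 on the normal and by -0.88 on the CDAA diet. Fasn, the fatty acid synthase, read 10.02, 9.85, 9.22 and 9.95 against 9.93, 10.16, 9.71 and 10.62, a difference of 0.35 (unadjusted p 0.143), whereas it fell by 1.22 on the CDAA diet (adjusted p 0.03). The effects on the 2 diets differed by 1.56 for Fasn, with an unadjusted p of 0.000151 and an adjusted p of 0.179. For Insig1 and Insig2, which retain the SREBP factors in the endoplasmic reticulum, differences were 0.46 and -0.16 on the normal diet. Insig2 fell by 1.11 on the CDAA diet (adjusted p 0.00259). No list member was called for the difference between diets.

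No antioxidant gene was called, and most differences were small. Among 27 measured NRF2 targets and glutathione genes, 18 were higher and 9 lower, with a median of 0.09. At an unadjusted p of 0.05, 0 were higher and 0 lower (3.31% and 3.8% of all genes). The groups were separated for 3 of the 27, Gsta1, Abcc2 and Me1, all higher, where 2.43% of all genes were separated that way. Without control replicate 4 the median was 0.134 and 3 were higher at that p (3.2% of all genes). In that setting 7 of the 27 were separated and higher, against 4.65% of all genes. The summed linear signal of the 27 was 17186 to 18785 in the control and 19085 to 19946 in the hydrogen livers, which do not overlap, whereas the mean of their log2 values was 7.73 to 8.07 and 7.89 to 7.94, which do. Hmox1, haem oxygenase 1, read 7.23, 6.81, 7.42 and 7.35 in control and 7.14, 7.22, 7.03 and 7.11 in hydrogen livers. Its difference was -0.08, with a 95% interval of -0.30 to 0.15. Nqo1, a quinone reductase and standard NRF2 target, differed by -0.23 (interval -0.72 to 0.26). Gsta1, a glutathione transferase, read 11.67 to 11.79 against 11.83 to 12.03 and differed by 0.17 (interval -0.01 to 0.36). Txnrd1, thioredoxin reductase 1, differed by 0.18 (interval -0.02 to 0.37). Of the 27 genes, 6 had an unadjusted p under 0.05 for the difference between diets (9.27% of all genes). Hmox1 was among them at 0.00368, and it differed by 0.44 on the CDAA diet.

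Of 20 genes for the removal of peroxide and superoxide, 1 was higher and 0 lower at an unadjusted p of 0.05 (3.31% and 3.8% of all genes). Msra, which repairs oxidised methionine in proteins, read 7.06, 6.86, 7.01 and 6.99 against 7.41, 7.24, 7.44 and 7.30. The groups were separated, and the difference was 0.37 (unadjusted p 0.00937), against 0.07 on the CDAA diet. Cat, catalase, read 12.42 to 12.47 in control and 12.45 to 12.53 in hydrogen livers and differed by 0.03 (interval -0.11 to 0.17). Sod2, the mitochondrial superoxide dismutase, differed by 0.06 and Gpx1, the main glutathione peroxidase, by 0.10 (interval -0.01 to 0.20). These abundant enzymes thus had intervals well inside a 1.5-fold change. Prdx6, a peroxiredoxin, differed by 0.18 (unadjusted p 0.0518). Mt1, metallothionein 1, read 5.20, 5.63, 5.39 and 4.51 against 5.16, 4.52, 4.76 and 4.19, a difference of -0.53 (unadjusted p 0.0505). Without control replicate 4, whose Mt1 was the lowest of its group, the difference was -0.75 (unadjusted p 0.00536), and on the CDAA diet it was 1.13.

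Interferon-stimulated and MHC class II genes were mostly lower in small steps, whereas lymphocyte markers were evenly split. Of 25 interferon-stimulated genes 22 were lower and 3 higher, with a median of -0.095, but 1 passed an unadjusted p of 0.05 (all genes 3.31% higher and 3.8% lower). The groups were separated for 3 of the 25, all lower (3.26% of all genes). The mean of the 25 genes was 7.05 to 7.12 per control liver and 6.97 to 7.01 per hydrogen liver. Such list means were also separated for the cell division and growth hormone lists and for the neutrophil list of 2 genes. They overlapped between the groups for all other lists. Irf1, an interferon-gamma responsive factor, read 7.04, 7.10, 7.00 and 7.00 in control and 6.49, 6.71, 6.43 and 6.75 in hydrogen livers, separated groups with a difference of -0.44 (unadjusted p 0.00417). Rsad2, the antiviral protein viperin, differed by -0.35 (unadjusted p 0.189). All 8 MHC class II genes were lower on the normal diet, with a median of -0.169, and all 8 were higher on the CDAA diet, with a median of 0.126. RT1-DMb, which loads peptides on class II molecules, differed by -0.28 (unadjusted p 0.0475), and Cd74, the invariant chain, by -0.16. Without control replicate 4 the difference of RT1-DMb had an unadjusted p of 0.126. Of 14 T, NK and B cell markers 7 were higher and 7 lower, with a median of 0.016. Among them Cd4, the coreceptor of helper T cells, which macrophages of the rat also carry, differed by 0.12 with separated groups (unadjusted p 0.0247). Cd4 was the 1 member separated and higher, and 1 was separated and lower (2.43% and 3.26% of all genes). Without control replicate 4 none of the 14 passed an unadjusted p of 0.05. Macrophage markers were slightly lower: of 16 Kupffer cell and macrophage markers 13 were lower, with a median of -0.045, and their summed linear signal was 3347 to 5365 in the control and 4048 to 4683 in the hydrogen livers. The highest sum, 5365, was that of control replicate 4, without which the median of the markers was -0.002 and that of the MHC class II genes -0.111. Adgre1, the macrophage surface protein F4/80, differed by -0.39 (unadjusted p 0.0659). The part of macrophage content in the MHC class II values was not tested.

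S100a9, a calcium-binding protein of neutrophils, read 5.42, 5.42, 5.45 and 5.40 in control and 5.04, 4.97, 4.96 and 4.96 in hydrogen livers. Both groups were tight and did not overlap, with a difference of -0.44 (unadjusted p 0.00218, adjusted p 0.365). S100a9 differed by 0.19 on the CDAA diet. Only 2 neutrophil markers were measured, and the other, Lcn2, which encodes lipocalin 2, differed by 0.08 (unadjusted p 0.462) with overlapping groups. The 28 acute phase and inflammation genes had a median of -0.021, with 0 higher and 2 lower at an unadjusted p of 0.05 (3.31% and 3.8% of all genes). A2m, an acute phase protease inhibitor, read 5.56, 5.68, 5.35 and 6.66 against 5.55, 4.89, 4.93 and 5.02 and differed by -0.72, but by -0.43 without control replicate 4. Vcam1, an endothelial adhesion molecule, differed by -0.25 (unadjusted p 0.0331), and by -0.14 without that array. Tnf, the cytokine tumour necrosis factor, differed by 0.11 (unadjusted p 0.277).

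Differences of chaperone and mitochondrial genes stayed small. Of 16 cytosolic heat shock genes 13 were higher, with a median of 0.085, and 3 were higher at an unadjusted p of 0.05 (3.31% of all genes). These were Hspa8, the constitutive HSC70, its cochaperone Dnajb1 and the adaptor Stip1, with differences of 0.26, 0.26 and 0.24. The second probe set of Dnajb1 differed by 0.36 (unadjusted p 9e-04). None of the 16 had separated groups. Of 37 respiratory chain and ATP synthase genes 29 were higher and 7 lower, with a median of only 0.035. Cox5a, a subunit of cytochrome oxidase, was the 1 member with an unadjusted p under 0.05 (all genes 3.31% higher and 3.8% lower), and it differed by -0.18. PPAR alpha targets had a median of 0.015 over 24 genes on the normal diet against 0.215 on the CDAA diet. The 27 genes of the ATF4 stress response had a median of 0.002 on the normal diet, 0.095 without control replicate 4 and -0.322 on the CDAA diet. With separated groups 1 of these 27 was higher (2.43% of all genes), and 8 were without control replicate 4 (4.65% of all genes). None of these lists held a called gene (plot of list medians).

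**Figure D5:**
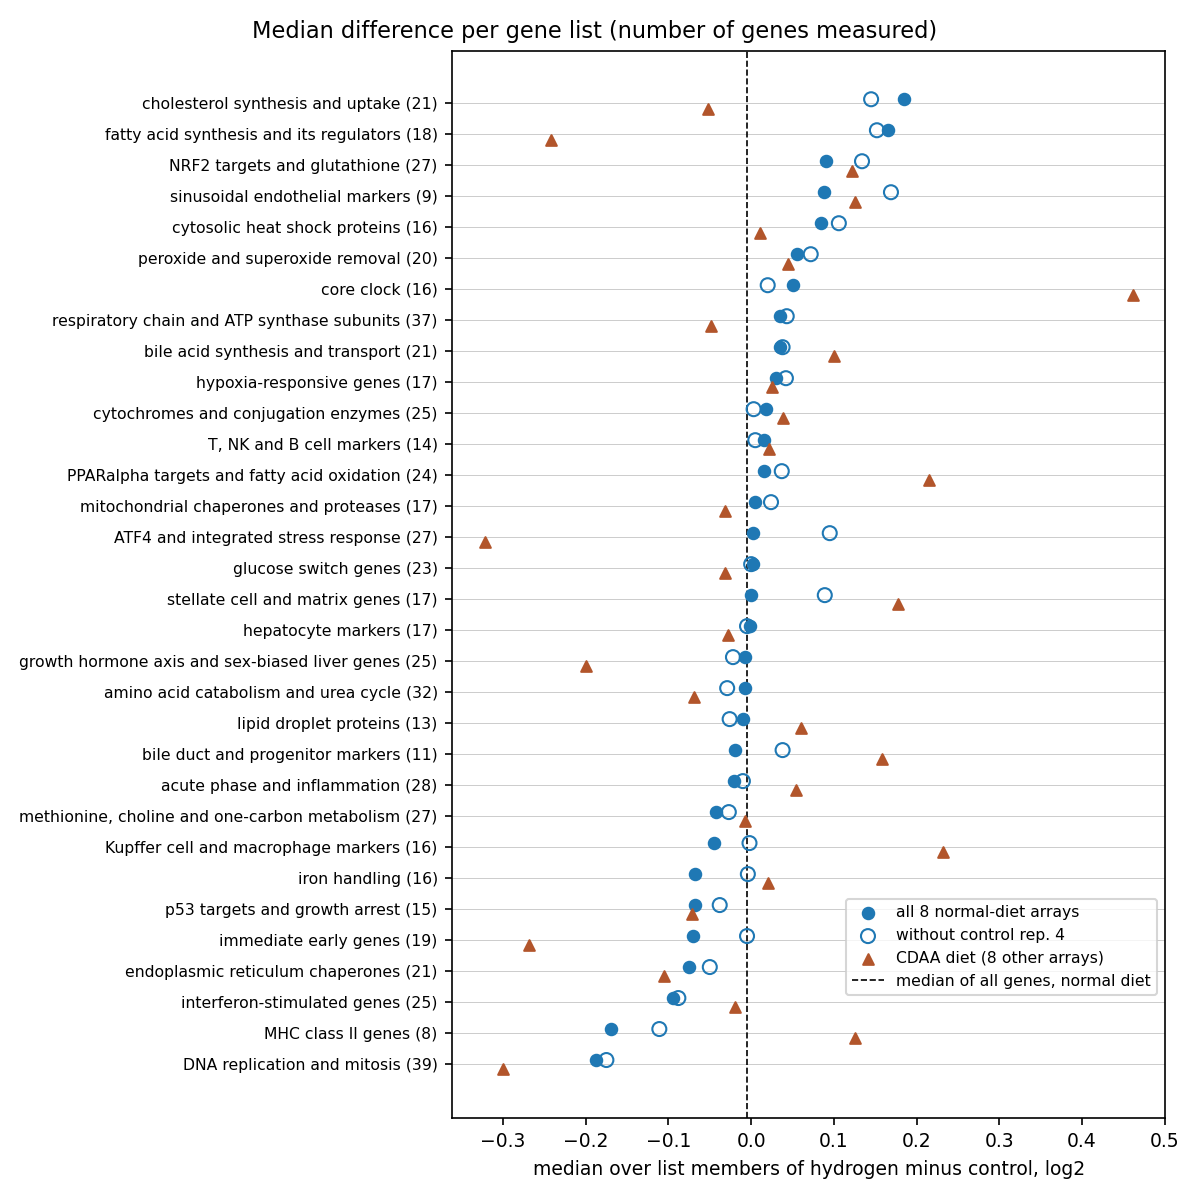
Median over the members of each gene list with at least 8 measured genes of the hydrogen minus control difference, on the log2 scale. Filled circles use all 8 normal-diet arrays, open circles leave out control replicate 4, and triangles use the 8 CDAA arrays. The normal-diet medians run from -0.188 for DNA replication and mitosis to 0.185 for cholesterol synthesis and uptake, and the clock list, whose members differ in both directions, has a median of 0.05.

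Some differences rested wholly or in part on control replicate 4. Myc, a growth-promoting factor, read 3.65, 3.90, 3.98 and 7.27 in control and 3.66 to 3.87 in hydrogen livers, so that its difference of -0.95 became -0.09 without that array. Enc1, an actin-binding protein, read 4.60, 4.39, 4.37 and 7.73 against 3.91 to 4.58, with differences of -1.08 and -0.26. Fgf21, a hepatic stress hormone, read 4.83, 4.59, 5.17 and 9.23 in control and 5.56, 6.36, 6.21 and 5.79 in hydrogen livers. The difference of Fgf21 was 0.03 with all arrays and 1.12 (unadjusted p 0.101) without control replicate 4, since the other 3 controls lay below all hydrogen livers. Igfbp1, a growth factor binding protein induced by fasting, read 9.77, 9.72, 9.35 and 11.32 against 8.80 to 9.41, with a difference of -0.93 (unadjusted p 0.0182) that became -0.50 (unadjusted p 0.0773). Serpina7, the carrier of thyroid hormone, read 6.61, 6.20, 4.80 and 8.44 against 4.66 to 5.54, and its difference of -1.43 became -0.79. Myc, Enc1, Fgf21 and Serpina7 were chosen after their values were seen.

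The difference between the effects of hydrogen on the 2 diets was called for 1 of 22634 probe sets (0.00442%) and for 0 named genes (0%), while 2066 probe sets (9.13%) passed an unadjusted p of 0.05. That probe set, 1390117_PM_at, has no gene symbol here. On the normal diet it read 8.33, 8.27, 8.37 and 8.14 in control and 8.23, 8.26, 8.17 and 8.32 in hydrogen livers, which overlap. On the CDAA diet it read 7.93, 8.11, 8.02 and 8.09 against 7.39, 7.37, 7.20 and 7.35, and the effects differed by 0.68 (adjusted p 0.0333). Its normal-diet values thus held no separation between the groups, and the separation lay on the CDAA diet.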

How the data were processed

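Per the labels' protocols, biotinylated antisense RNA amplified from liver total RNA was hybridised to RG-230 PM strips of the Affymetrix GeneAtlas system. The deposited table holds the authors' log2 signals, made with RMA in Affymetrix Expression Console per the submitters' processing notes, with no versions given in the sources used here. RMA subtracts background and quantile-normalizes all arrays together, so array medians were alike (4.33 to 4.37) and shifts of all genes are removed. Scanner files were not used here.

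From the 31139 probe sets, 97 controls were left out. Probe sets above the 30th percentile of all values (3.68) on at least 4 arrays were kept, 22634 in all. Genes were named through the platform annotation (19063 probe sets with 1 symbol, 572 with several, 11407 with none), 18983 matched by Entrez number with 0 symbols changed, and the probe set of highest mean stood for a gene. One limma fit (version 3.58.1, R 4.3.3) with 1 mean per group over all 16 arrays gave the contrasts, with Benjamini-Hochberg adjustment over 22634 probe sets and calls at an adjusted p under 0.05. The fit was tested on simulated data. Figures were drawn with matplotlib 3.10.9.

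The genes named in the text are those called, the 12 higher and 12 lower of lowest p with separated groups, the 10 of each kind without control replicate 4, up to 3 members of each list by p, and genes called for the difference between diets. Other genes in the text, and members beyond those 3, were chosen after their values were seen, and not every gene the rule gives is printed. The members and gene lists were chosen with earlier results of these data known. Alternatives were the filter, scaling, replicate block, array weights, prior variance, the arrays in the fit and leaving out each array. The labels do not say whether equal replicate numbers pair the samples. The correlations of deviations from the group means were 0.156, -0.047, 0.122 and 0.13 for equal numbers and -0.199 to 0.132 for unequal numbers. The main fit used no replicate block. The promoters are RefSeq windows.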

Additional observations from a re-analysis of the deposited data

Results flagged for a closer look

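An array stood far from the other 3 of its group, by Dixon's test for 4 samples, in 13 of 186 comparisons over 93 genes of the text and both normal-diet groups. Chance gives about 5%, but Myc, Enc1 and Fgf21 were put among these genes because control replicate 4 stood apart for them, so the count is not set against that share. Control replicate 4 was the distant array for Myc (7.27), Enc1 (7.73), Fgf21 (9.23) and Nr1d1, where it read 6.20 against 6.81 to 6.90, and on the first principal component, where it lay at -13.44 against -35.09 to -32.28. Other control livers stood apart for Acly (replicate 3, 9.92), Cry1 (replicate 2, 5.23) and Rrm2 (replicate 1, 7.82). Among the hydrogen livers, replicate 1 was high for Rsad2 (6.74 against 6.21 to 6.25), S100a9 (5.04), Gpx1 (12.70) and Zmiz2 (6.55), replicate 2 was low for Cry1 (4.86), and replicate 4 was high for Cmklr1 (4.78).

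The probe set 1390117_PM_at was the 1 for which the effects of hydrogen differed between the diets by a test of that difference, at 0.677 (adjusted p 0.0333 in limma).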

How the results depend on the processing

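The count of called probe sets on the normal diet, 2, stayed at 2 with no filter, a filter at the 50th percentile, quantile normalization again and median centring. It was 5 with a trended and robust prior, 17 with only the 8 normal-diet arrays, 10 with those arrays without control replicate 4, and 46 (13 higher, 33 lower) with array weights. With the replicate number as a block it was 1, and the labels do not say whether the numbers pair the samples. The count for the difference between diets was 0 with the block and 3 with array weights. Leaving out 1 array gave 0 to 11 calls for the normal diet, 21 to 346 for the CDAA diet (71 with all arrays) and 0 to 21 for the difference between diets (1 with all arrays), the last 2 highest counts without CDAA control replicate 2. The leave-outs of CDAA arrays, chosen after seeing the data, gave 2 to 6 calls on the normal diet. The cause of these changes was not tested. The median of the methionine list was -0.01 with all probe sets averaged, and that of the iron list -0.004 without control replicate 4. Leaving out 1 array turned the sign of 5 named genes near 0: the ranges were -0.253 to 0.104 for Cyp7a1, -0.013 to 0.103 for Per1, -0.091 to 0.003 for Krt19, -0.002 to 0.094 for Cpa1 and -0.43 to 1.117 for Fgf21, whose highest value came without control replicate 4. With 4 arrays a group, the median half-width of the 95% interval was 0.172, so differences under about that size were within the error for many probe sets.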
